A study of Drosophila melanogaster with 2 samples.

Results

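Circulating hemocytes from p35RasV12 larvae were compared with those from RasV12 larvae across all genes. The cells were chosen by the genotype that the deposited cell annotation gives them, P35;Ras or Ras, and were kept if at most 10% of their reads lay on the mitochondrial genome and at least 200 genes had a read. This left 124 of 126 p35RasV12 cells and 126 of 127 RasV12 cells. These 250 cells came from the 463 wells of the whole series. A further 125 circulating w1118 cells from tumor-free larvae are used below as a reference level only. In the RasV12 larvae the dominant-active oncogene UAS-RasV12 was expressed under Beadex MS1096-Gal4, a driver that is active in the salivary gland and makes it grow into a dysplastic tumor. The p35RasV12 larvae carried UAS-RasV12 together with p35. The label of the circulating set, which holds all 3 genotypes, names w1118 and Beadex MS1096-Gal4 and does not give the driver per genotype. The stock names of all genotypes include w1118, but the UAS-RasV12 and p35 lines were separate stocks, and matched backgrounds are not stated. Hemocytes of each genotype were sorted for the red fluorescence of an EaterDsRed reporter, so that plasmatocytes were selected. A Smart-seq2 library was made from each sorted cell, a method in which whole cDNAs are amplified and reads carry no molecular identifier. The age of the larvae whose cells were sorted is not given in the sources used here.

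The p35 protein comes from a baculovirus and blocks effector caspases, the proteases that carry out apoptosis. In larvae with a salivary gland tumor it is used to ask how hemocytes respond when the tumor cells cannot complete caspase-dependent death. Plasmatocytes are the macrophage-like hemocytes of Drosophila, which engulf dying cells and microbes and secrete basement membrane. The other mature hemocytes of larvae are crystal cells, which store prophenoloxidases for melanization, and lamellocytes, flat cells that are rare in undisturbed larvae.

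Each genotype came from 1 pool of larvae, so no difference between the genotypes has a replicate check and no test was made. In the well names, p35RasV12 cells occupied plate columns 17 to 24 and RasV12 cells columns 9 to 16, and therefore the effects of genotype, genetic background, larval pool and plate position cannot be told apart. Levels are given in CPM, the reads of a gene summed over the cells of a genotype, per 1000000 reads of that genotype. Intervals are 95% intervals, exact Poisson for levels and their ratios and Clopper-Pearson for shares of cells. The Poisson intervals take each read as an independent count. PCR copies of a cDNA are not independent molecules, so the Poisson intervals understate the uncertainty of levels and ratios. They also leave out variation between cells, and no interval of either kind covers variation between larval pools. The kept cells held a median of 626613 reads and 4582 genes in p35RasV12 and of 582056 reads and 4573 genes in RasV12, with a range over both genotypes of 2129 to 1009278 reads. Ras85D, the gene that the transgene encodes in a mutated form, stood at 258 CPM in p35RasV12 and 235 CPM in RasV12 hemocytes, close to the 277 CPM of w1118. The 10 plasmatocyte markers were all found above the level set below, with summed levels of 38384 CPM in p35RasV12 and 30094 CPM in RasV12, and the plasmatocyte label of both groups thus fits its markers. A list of 10 salivary gland genes gave 0.440 CPM and 0.492 CPM.

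The annotation further divides the circulating cells into 5 clusters, numbered 0 to 4 by the authors. Their paper also has clusters 0 to 4, but its cluster 2 is largely gland-attached cells and its cluster 3 circulating cells of the tumor models. Here cluster 3 held 42 w1118 cells, 1 RasV12 cell and 0 p35RasV12 cells, so the 2 numberings cannot be equated. Of the p35RasV12 cells, 93 lay in cluster 0, 29 in cluster 2 and 2 in cluster 4. RasV12 cells were spread more widely, with 57 in cluster 0, 20 in cluster 2 and 49 in clusters 1, 3 and 4. These last 3 clusters also held 114 of the 125 w1118 cells. The comparison of all cells is thus also a comparison between 2 different mixtures of cells, and the values of most named genes within clusters 0 and 2 together, with 122 p35RasV12 and 77 RasV12 cells, are therefore also given. The authors drew the clusters from the expression of these same cells, so the values within them are a description.

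A total of 3451 genes reached 50 CPM in the genotype with the higher level, and were read in no fewer than 25% of its cells. Among these, 74 genes (2.14%) were at least 2-fold higher in p35RasV12 hemocytes, 86 (2.49%) were at least 2-fold lower, and 3291 lay within 2-fold. The median log2 ratio of p35RasV12 over RasV12 was 0.04. Large differences were mostly on the lower side, where 33 genes were past 4-fold against 13 on the higher side. Of the 86 lower genes 78 had a still higher level in w1118 than in RasV12, and of the 74 higher genes 55 had a still lower level in w1118. The matching shares among all 3451 genes tested were not computed, so these counts only describe the called genes. Within clusters 0 and 2, 35 of the 74 higher genes stayed at least 2-fold higher, but only 13 of the 86 lower genes stayed at least 2-fold lower. When the level was set anew on the cells of clusters 0 and 2, 49 of 3506 genes were higher (1.4%) and 12 were lower (0.342%).

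**Figure D1:**
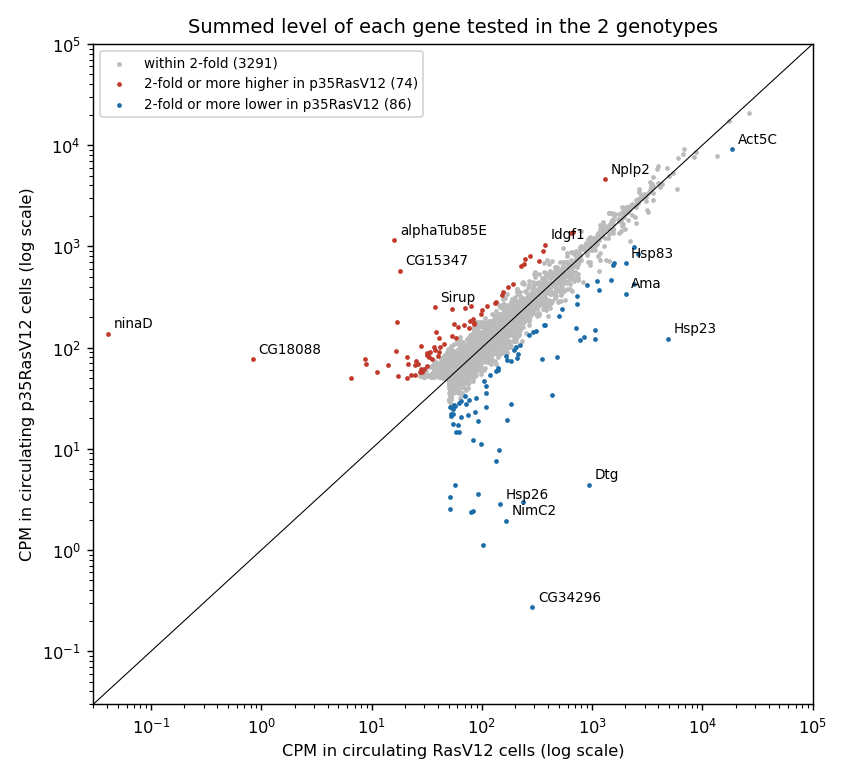
Level of each of the 3451 genes in RasV12 (x axis) and p35RasV12 hemocytes (y axis), in CPM on log scales, with 1 point per gene and the line of equal levels. The 74 genes at least 2-fold higher in p35RasV12 are red and the 86 lower genes blue, with ninaD farthest above the line and CG34296 farthest below it.

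The gene with the largest ratio was ninaD, which encodes a class B scavenger receptor known from the uptake of carotenoids (FBgn0002939, chromosome 2L from 18081628 to 18083608 in Dm6). Its reads were found in 92 of 124 p35RasV12 cells (74.2%, 65.6% to 81.6%), but in only 3 of 126 RasV12 cells (2.38%, 0.494% to 6.80%) and in 13 of 125 w1118 cells. The level per cell ran from 0 over a median of 95.9 CPM to 849.6 CPM in p35RasV12 and from 0 over a median of 0 to 1.64 CPM in RasV12. No RasV12 cell came near the typical p35RasV12 cell, although 32 p35RasV12 cells had no read. Summed over cells, 10563 reads stood against 3, giving 137 CPM (134 to 139) and 0.0410 CPM (0.00845 to 0.120) and a log2 ratio of 11.70 (10.16 to 13.98). After all cells were thinned to 420000 reads the shares were 73.5% and 0.909%. The log2 ratio was 11.61 within clusters 0 and 2, and in w1118 the level was 3.89 CPM.

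CG18088, a gene of no named function (FBgn0032082, chromosome 2L from 8967535 to 8970627), was distributed in a similar way. It had reads in 60 of 124 p35RasV12 cells (48.4%, 39.3% to 57.5%), in 2 of 126 RasV12 cells and in 0 of 125 w1118 cells, and 34 p35RasV12 cells but no RasV12 cell exceeded 100 CPM. The summed level was 76.9 CPM against 0.833 CPM, a log2 ratio of 6.53 (6.17 to 6.92), and a single RasV12 cell held 98.4% of the reads of its genotype. Part of its exons overlaps CG9541, and reads falling on both genes were not counted for either.

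Sirup, an assembly factor of the succinate dehydrogenase complex of mitochondria (FBgn0031971, chromosome 2L from 7998869 to 7999676), was higher in nearly the whole p35RasV12 population. The level per cell reached from 0 over a median of 152 CPM to 2793 CPM in p35RasV12, from 0 over 12.8 CPM to 674 CPM in RasV12, and had a median of 0 in w1118. Of the 124 p35RasV12 cells 111 lay above the RasV12 median, although the ranges overlapped. The ratio of the summed levels, 251 CPM over 37.8 CPM, was 2.73 on the log2 scale (2.68 to 2.79) and 2.40 within clusters 0 and 2. Nepl3, a member of the neprilysin-like peptidase family, had a median per cell of 39.7 CPM in p35RasV12 and 0 in RasV12. Here RasV12 was the exception, since w1118 cells had a median of 51.3 CPM, and the summed levels were 66.7 CPM in p35RasV12, 14.1 CPM in RasV12 and 76.9 CPM in w1118. Its log2 ratio was 2.24, and 2.14 within clusters 0 and 2.

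Imaginal disc growth factors are secreted chitinase-like proteins that hemocytes release during clotting and wounding. The 4 tested members were all above RasV12 in p35RasV12, 3 of them past 2-fold against 2.14% of all genes tested, with a median log2 ratio of 1.27 against 0.04. Idgf1 ran from 0 over a median of 983 CPM to 2066 CPM in p35RasV12 cells and from 0 over 327 CPM to 1176 CPM in RasV12 cells. The groups overlapped, but in 85.6% of all pairs of 1 p35RasV12 and 1 RasV12 cell the p35RasV12 cell was higher, and 60 p35RasV12 cells against 5 RasV12 cells exceeded 1000 CPM. For Idgf2 the medians per cell were 516 CPM and 129 CPM. The summed log2 ratios of Idgf2, Idgf1 and Idgf3 were 1.62, 1.47 and 1.07, while Idgf6, with 8216 CPM in p35RasV12 and 6690.3 CPM in RasV12, stood at 0.30. Within clusters 0 and 2 the first 2 remained past 2-fold at 1.06 and 1.12, Idgf3 was at 0.62, and the list median was 0.84.

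Nplp2, which encodes a secreted neuropeptide-like precursor, was named after its values were seen. It stood at 4626 CPM in p35RasV12 against 1312 CPM in RasV12 and 468 CPM in w1118. The level per cell ran from 0 to 22108 CPM in p35RasV12 and from 0 to 9464 CPM in RasV12. At or below 100 CPM were 20 of 124 p35RasV12 and 45 of 126 RasV12 cells. Over 1000 CPM were reached by 90 of 124 p35RasV12 and 52 of 126 RasV12 cells, and 89 and 52 of these were cells of clusters 0 and 2. The log2 ratio was 1.82 over all cells and 1.15 within these clusters. Pairs of cells also separated CtsL1 and CG34331, the first a lysosomal cysteine protease, with the p35RasV12 cell higher in 83.3% and 84.6% of pairs. CtsL1 had medians per cell of 1301 CPM and 582 CPM and a log2 ratio of 1.03, or 0.73 within clusters 0 and 2. CG34331 had medians of 748 CPM and 404 CPM and a ratio of 0.90, short of 2-fold, or 0.54 within these clusters.

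**Figure D2:**
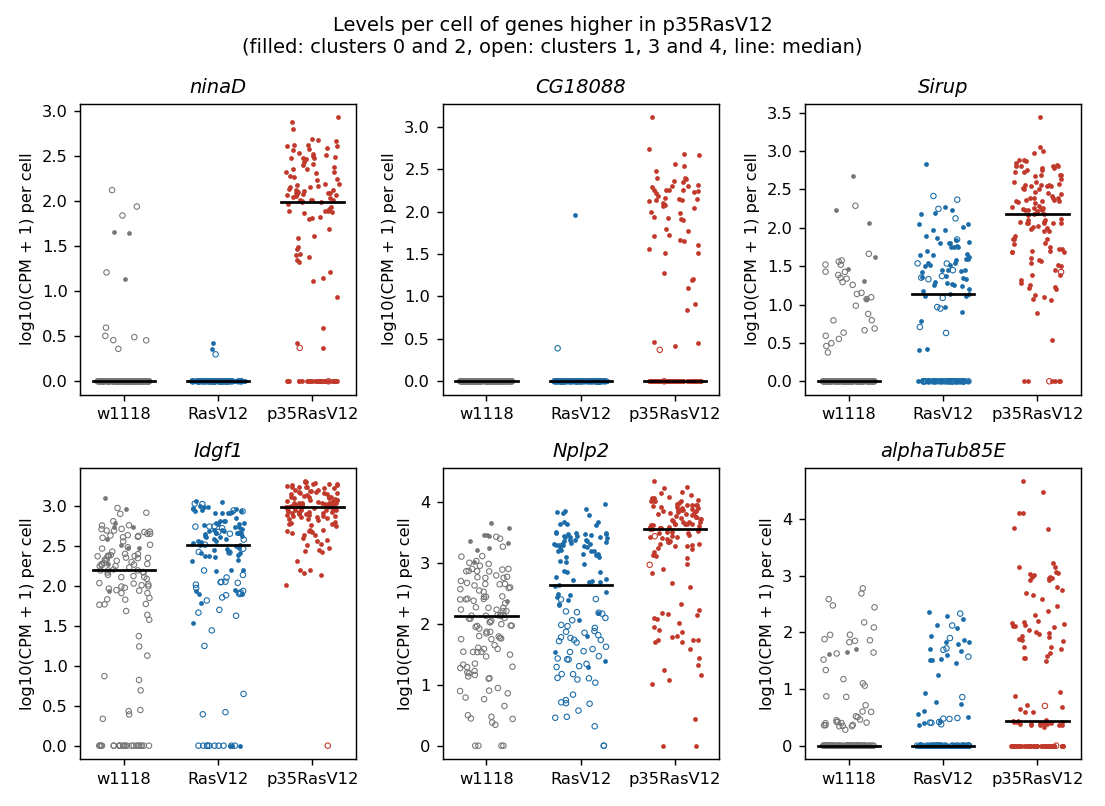
Level per cell of 6 genes that were higher in p35RasV12, as log10(CPM + 1) on the y axis, in w1118, RasV12 and p35RasV12 hemocytes; each point is a cell, filled for clusters 0 and 2 and open for clusters 1, 3 and 4, and the line is the median. ninaD and CG18088 have reads almost only in p35RasV12, the medians of Sirup and Idgf1 are higher, more p35RasV12 than RasV12 cells are high for Nplp2, and the highest levels of alphaTub85E stand in few cells.

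A second group of higher genes rested in part on few cells. In p35RasV12 5 cells, but in RasV12 and w1118 no cell, had over 1000 CPM of atilla, which encodes a surface protein of lamellocytes. Over all cells atilla stood at 253 CPM against 0.0137 CPM, from 19555 reads against 1, and ItgaPS4, an integrin alpha subunit found in lamellocytes, at 263 CPM against 0.218 CPM. Both were read in too few cells to be among the genes tested. alphaTub85E, an alpha-tubulin isotype, had the third largest log2 ratio of the genes tested, 6.16 (6.08 to 6.25), with 1153 CPM against 16.1 CPM. The median per cell was 1.75 CPM in p35RasV12 and 0 in RasV12, whereas the highest cells had 46461 CPM and 226 CPM. Without the 5 cells rich in atilla the ratio was 3.96, within clusters 0 and 2 it was 5.94, and 37 p35RasV12 against 7 RasV12 cells had over 100 CPM, so that alphaTub85E was also higher outside these 5 cells.

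For other genes the difference in summed level was also smaller without the 5 cells, to differing degrees. The log2 ratio went from 5.00 to 0.22 for CG15347, from 3.17 to 0.52 for bero, a Ly6-type membrane protein, and from 2.96 to 0.25 for Ak1, an adenylate kinase. It went from 3.41 to 1.16 for mthl4, a receptor of the Methuselah family, and from 2.49 to 1.38 for CG10126, both still past 2-fold. The RasV12 level of bero came almost wholly from 1 cell. Reads of bero were found in 29.0% of p35RasV12 and 2.38% of RasV12 cells. Without the top cell of each genotype the log2 ratio of bero was 10.77. Itgbn, the integrin beta subunit that takes part in phagocytosis of apoptotic cells, kept a ratio of 1.89 of its original 2.95. It had reads in 54 of 124 p35RasV12 cells and 18 of 126 RasV12 cells. Within clusters 0 and 2, where these 5 cells were kept, the ratios were 4.49 for CG15347, 2.49 for bero, 2.68 for Ak1, 3.28 for mthl4, 3.88 for CG10126 and 2.39 for Itgbn. Spn88Eb, a serpin, was read in 43 and 25 cells and had 57.1 CPM against 11.2 CPM, with a log2 ratio of 2.35 over all cells, 2.11 without the 5 cells and 2.38 within clusters 0 and 2. Of the 74 higher genes, 56 stayed at least 2-fold higher without the 5 cells, and 23 did so both there and within clusters 0 and 2.

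The lower genes had a different structure. Of the 86, 78 had over 50% of their RasV12 reads in the 49 RasV12 cells of clusters 1, 3 and 4, and the median share of these cells was 76.1% against 34.5% for all genes tested. Hsp23, a small heat shock protein (FBgn0001224, chromosome 3L from 9381882 to 9382765), showed it most clearly by amount. The level per cell ran from 0 over a median of 50.8 CPM to 1182 CPM in p35RasV12, from 0 over 322 CPM to 30676 CPM in RasV12, and had a median of 7937 CPM in w1118. Over 1000 CPM were found in 1 of 124 p35RasV12 cells, 48 of 126 RasV12 cells and 103 of 125 w1118 cells, and only 5 of the 48 belonged to clusters 0 and 2. The summed levels of 123 CPM and 4889 CPM gave a log2 ratio of -5.32 (-5.35 to -5.29). In RasV12 cells of clusters 1, 3 and 4 the level was 12421 CPM, in those of clusters 0 and 2 it was 204 CPM, and in p35RasV12 cells of clusters 0 and 2 it was 121 CPM, a ratio of -0.76.

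Dtg, first described as a target of the BMP ligand Dpp (FBgn0038071, chromosome 3R from 12648058 to 12652910), was divided even more sharply. RasV12 cells ranged from 0 over a median of 1.60 CPM to 6252 CPM, and all 33 cells over 1000 CPM belonged to clusters 1, 3 and 4. In p35RasV12 the median was 0 and the highest cell stood at 469.7 CPM, a value that comes from a cell of low depth. The log2 ratio was -7.72 (-7.88 to -7.57) over all cells and 0.76 within clusters 0 and 2, where both levels were low, at 4.09 CPM and 2.41 CPM. NimC2, a receptor of the Nimrod family of phagocytosis proteins, had 99.5% of its RasV12 reads in the cells of clusters 1, 3 and 4, and its ratio was -6.40 over all cells and 0.37 within clusters 0 and 2. The largest negative ratio, -10.05 (-10.74 to -9.44), was that of CG34296, with 0.272 CPM in p35RasV12 against 288 CPM in RasV12 and 418 CPM in w1118, and -0.57 within clusters 0 and 2.

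The remaining genes among the 12 lowest were CG4586, CG4408, Hsp26, CG42867, Nepl14, Hr4, Jabba and CG6287, with log2 ratios from -6.52 for CG4586 to -4.15 for CG6287. Hsp26 is a small heat shock protein, Nepl14 a neprilysin-like peptidase, Hr4 a nuclear receptor of the ecdysone response and Jabba a lipid droplet protein. Within clusters 0 and 2 only CG4586 and Nepl14 stayed past 2-fold, at -2.29 and -1.20, and the others lay between -0.43 and 0.51. A further 4 genes were named after their values were seen. Act5C, the main cytoplasmic actin, stood at 9102 CPM in p35RasV12, 18664 CPM in RasV12 and 30819 CPM in w1118, and its log2 ratio was -1.04 over all cells and 0.24 within clusters 0 and 2. For sn, the bundling protein fascin, the 2 ratios were -2.72 and 0.59, and for the actin-binding cib they were -1.65 and 0.24. Ama, a secreted protein of the immunoglobulin family, had over 1000 CPM in 13 p35RasV12, 51 RasV12 and 113 w1118 cells. Its ratio was -2.58 over all cells and -0.05 within clusters 0 and 2.

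**Figure D3:**
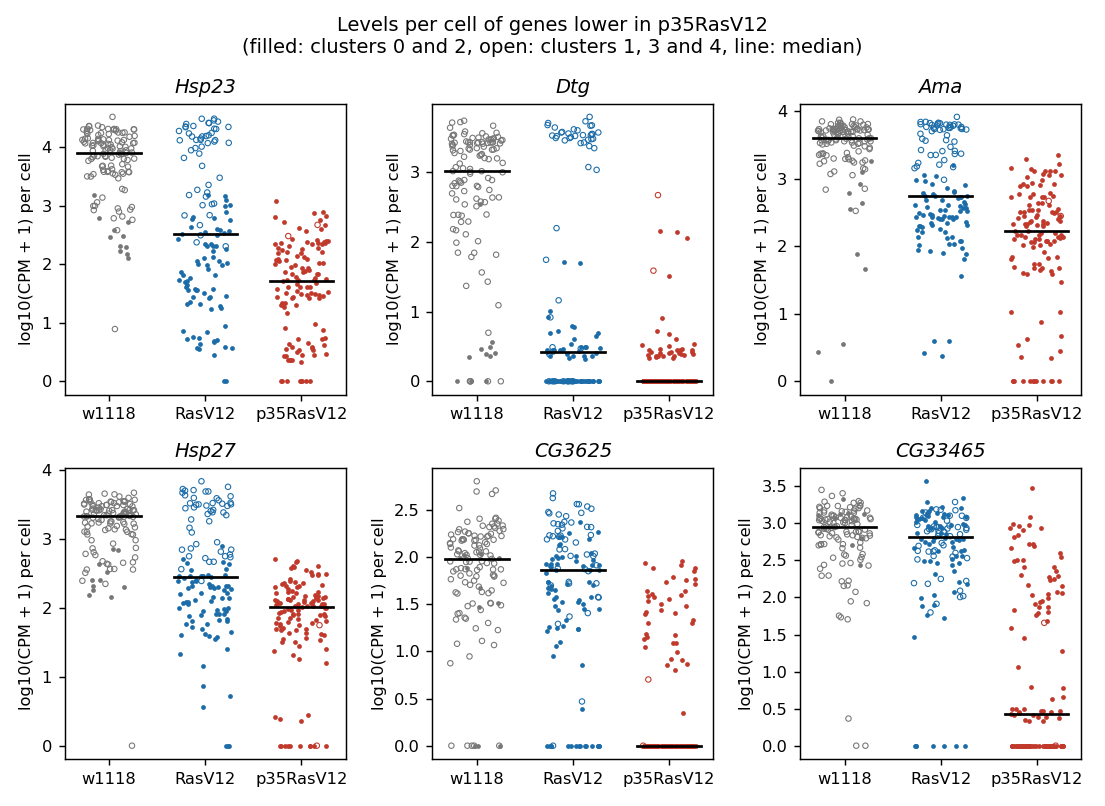
Level per cell of 6 genes that were lower in p35RasV12, as log10(CPM + 1) on the y axis, in w1118, RasV12 and p35RasV12 hemocytes; each point is a cell, filled for clusters 0 and 2 and open for clusters 1, 3 and 4, and the line is the median. High RasV12 cells of Hsp23, Dtg, Ama and Hsp27 are mostly open points, whereas CG3625 and CG33465 are also lower in p35RasV12 among the filled points.

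A few genes were lower in p35RasV12 within clusters 0 and 2 as well. For CG33465 (FBgn0053465, chromosome 2R from 15819114 to 15821114) the level per cell went from 0 over a median of 1.70 CPM to 2962 CPM in p35RasV12 and from 0 over 655 CPM to 3693 CPM in RasV12, with a median of 893 CPM in w1118. The p35RasV12 cells split into 33 with over 100 CPM and 91 at or below it, while 111 of 126 RasV12 cells and 117 of 125 w1118 cells exceeded 100 CPM. The p35RasV12 cell was the higher one in 13.2% of pairs. The log2 ratio was -2.18 (-2.21 to -2.15) over all cells, -2.19 within clusters 0 and 2 and -2.80 within cluster 2 alone. CG3625 exceeded 100 CPM in none of the p35RasV12 cells, in 46 RasV12 and in 59 w1118 cells. Its highest p35RasV12 cell had 90.5 CPM, the medians per cell were 0 and 72.3 CPM, and the log2 ratio was -3.13 over all cells and -2.24 within clusters 0 and 2. Its exons overlap 2 antisense RNAs, and since counting did not use the strand, reads of these cannot be told apart from its own outside the stretches left uncounted.

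Hsp83, the Hsp90 chaperone of the cytosol, had reads in nearly every cell and medians per cell of 466 CPM in p35RasV12, 1386 CPM in RasV12 and 3297 CPM in w1118. The p35RasV12 cells extended from 0 to 5243 CPM and the RasV12 cells from 5.31 CPM to 10384 CPM, and 105 of 124 p35RasV12 cells lay below the RasV12 median. The log2 ratio was -1.56 (-1.58 to -1.55), and -1.27 within clusters 0 and 2. Ance, a peptidase related to angiotensin-converting enzyme, had medians of 199 CPM and 471 CPM and ratios of -1.14 and -0.95. The fatty acid binding protein gene fabp, with medians of 658 CPM and 1313 CPM, had summed levels of 717 CPM and 1435 CPM, just within 2-fold, and a ratio of -0.42 within the clusters. Arc1, whose protein forms capsid-like particles carrying RNA, was highest in RasV12, with 86.6 CPM in p35RasV12, 212 CPM in RasV12 and 52.3 CPM in w1118. One RasV12 cell held 30.2% of the Arc1 reads of its genotype, and without the top cell of each genotype Arc1 was at -0.94, short of 2-fold. The ratio of -1.29 over all cells became -1.74 within clusters 0 and 2, but it was -0.06 among cells with at least 100 CPM of the roX RNAs described below.

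The 13 lower genes that stayed past 2-fold within clusters 0 and 2 were CG33465, CG3625, Hsp83, Arc1, CG4586, Nepl14, teq, fbp, CG33459, Rdh1, CG31751, Dg and mthl10. Dg, the extracellular matrix receptor dystroglycan, had 26.0 CPM against 109.6 CPM, and fbp, the gluconeogenic fructose-bisphosphatase, 29.9 CPM against 64.7 CPM. Of the 35 higher genes with this property, those not yet named included Tsp42Ed, a tetraspanin with 242 CPM against 53.4 CPM, RapGAP1, a negative regulator of the small GTPase Rap1 with 246 CPM against 69.8 CPM, shot, a spectraplakin linking actin to microtubules with 633 CPM against 225 CPM, and CG4250 with 811 CPM against 273 CPM. Their log2 ratios within clusters 0 and 2 were 2.23, 2.10, 1.20 and 1.86. These 6 genes were named after their values were seen.

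**Figure D4:**
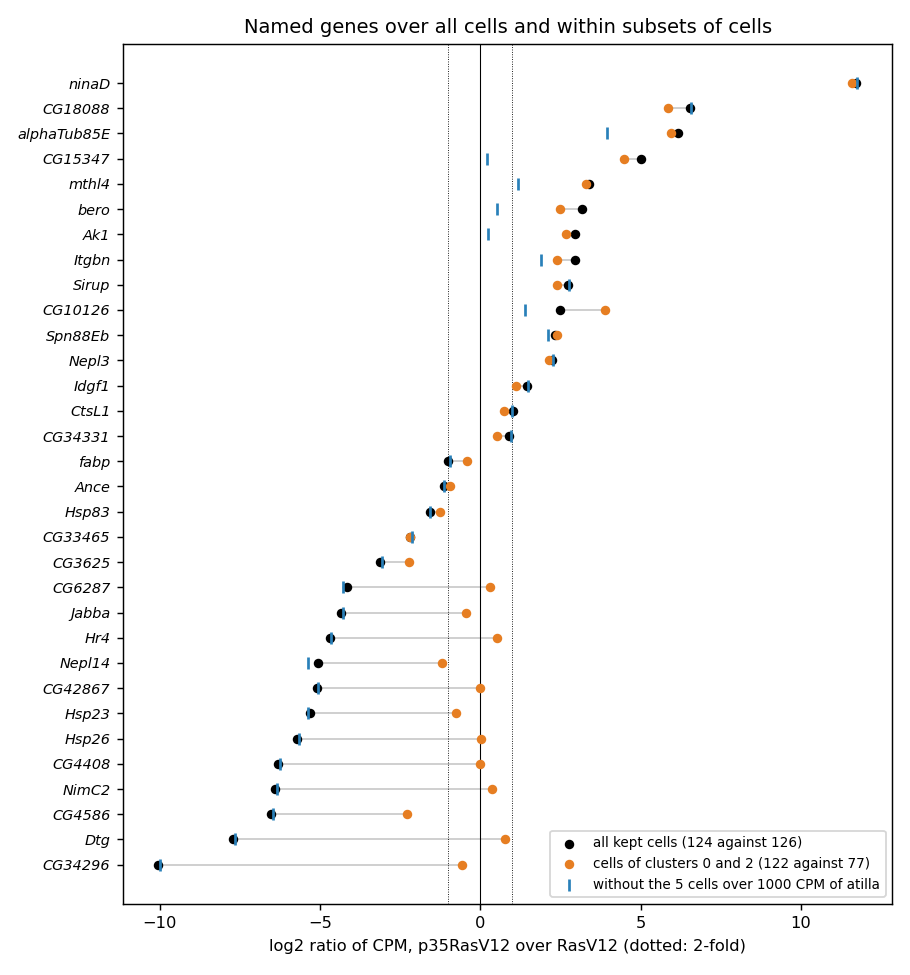
Log2 ratio of CPM, p35RasV12 over RasV12 (x axis), of the genes with the largest ratios or the most separated cell pairs (y axis), over all cells (black), within clusters 0 and 2 (orange) and without the 5 cells rich in atilla (blue tick). For most of the lowest genes the orange points lie near 0, whereas the highest genes keep their ratio there. Without the 5 cells CG15347, bero and Ak1 fall within 2-fold, but without the top cell of each genotype bero is at 10.77.

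Gene lists were described by the number of tested members past 2-fold, beside a share of 2.14% higher and 2.49% lower among all genes tested, and by the median log2 ratio. Of all 3451 genes tested, 1867 were above 0 and 1584 below 0. Heat shock genes had 4 of 9 members lower (2.49% of all genes) and none higher, with a median of -0.43. The 4 were Hsp26, Hsp23, Hsp27 (-3.13) and Hsp83, and of these Hsp83 alone remained past 2-fold within clusters 0 and 2, where Hsp27 was at -0.41. The constitutive Hsc70-4 was at -0.09 and the transcription factor gene Hsf at 0.16. Genes of protein folding in the endoplasmic reticulum had 12 of 14 members below 0 and a median of -0.37, which was the same within clusters 0 and 2. One of them was past 2-fold, the BiP chaperone gene Hsc70-3 at 994 CPM against 2378 CPM. Its ratio of -1.26 over all cells was -0.47 within clusters 0 and 2, no longer past 2-fold, and 64.3% of its RasV12 reads came from clusters 1, 3 and 4. Calreticulin (Calr) had 1704 CPM against 2517 CPM.

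Ecdysone response genes had 3 of 9 members lower, against 2.49% of all genes tested, namely the nuclear receptors Hr4 and Eip78C and the methionine sulfoxide reductase gene MsrA, with ratios of -4.69, -3.95 and -1.40. The median of the list was -0.37, but it was 0.23 within clusters 0 and 2, and none of the 3 was past 2-fold there. The receptor gene EcR had 102 CPM and 80.4 CPM. Single members were lower in the lists for lysosome (Gal, beta-galactosidase, -2.56), insulin pathway (Ilp6, an insulin-like peptide, -2.10), iron and metal (Mvl, a metal ion transporter, -1.29) and redox (Cat, catalase, -1.29). Each of these 4 lay between 0.04 and 0.34 within clusters 0 and 2.

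Among phagocytosis receptors 2 of 14 members were higher and 1, NimC2, was lower, against 2.14% and 2.49% of all genes tested, with 13 members above 0 and a median of 0.36. The scavenger receptor gene Sr-CIV was at 256 CPM against 80.3 CPM and NimB5 at 394 CPM against 174 CPM. Their ratios of 1.67 and 1.17 became 1.00, just short of 2-fold, and 0.69 within clusters 0 and 2, where the list median was 0.15. For the engulfment receptor gene drpr the levels were 419 CPM and 299 CPM. In the integrin list Itgbn and Fit1, a kindlin, were the 2 of 14 past 2-fold, both higher, against 2.14% of all genes tested. Fit1 had 233 CPM against 101 CPM, and its ratio of 1.21 went to -0.02 without the 5 cells rich in atilla. Further single higher members were Traf4, an adaptor of TNF receptor signaling with a ratio of 1.55, Thor, the translation repressor 4E-BP at 1.41, and MtnA, a metallothionein at 1.59, and all 3 stayed past 2-fold within clusters 0 and 2.

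All 22 tested DNA replication genes were above 0, against 1867 of all 3451 genes tested. They ran from 0.11 to 1.05, with a median of 0.41. Mcm5, a subunit of the replicative helicase, was past 2-fold at 81.9 CPM against 39.7 CPM. Of 35 mitosis genes 32 were above 0, with a median of 0.49, and sub, a kinesin-like protein of the spindle, was past 2-fold at 57.2 CPM against 27.3 CPM. Within clusters 0 and 2 neither was past 2-fold, with Mcm5 at 0.38 and sub at 0.41, and the list medians were -0.11 and 0.01. The median of the mitosis list was 0.95 among cells under 100 CPM of the roX RNAs and -0.43 among the others. The 83 cytosolic ribosomal protein genes were shifted little and together, with 81 above 0, a median of 0.19 and a summed level of 154307 CPM against 136969 CPM. Their median was 0.05 within clusters 0 and 2.

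No member was past 2-fold in the lists for apoptosis and caspases (9 tested), Ras and MAPK (12), Toll and Imd (17), JAK/STAT (3), TGF-beta and BMP (6), the mitochondrial genome (10) and nuclear OXPHOS (56). The caspase inhibitor gene Diap1 had 133 CPM and 126 CPM, the initiator caspase gene Dronc 103 CPM and 113 CPM, and the effector caspase gene Drice 77.5 CPM and 70.8 CPM. The Ras pathway targets pnt and sty had ratios of 0.65 and 0.42, and of 0.30 and 0.34 within clusters 0 and 2. None of the 16 antimicrobial peptide genes reached the level for the comparison. Their summed reads were 1242 in 35 p35RasV12 cells and 257 in 22 RasV12 cells, or 16.1 CPM and 3.51 CPM, of which the antifungal peptide gene Drs had 11.1 CPM and 0.328 CPM.

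**Figure D5:**
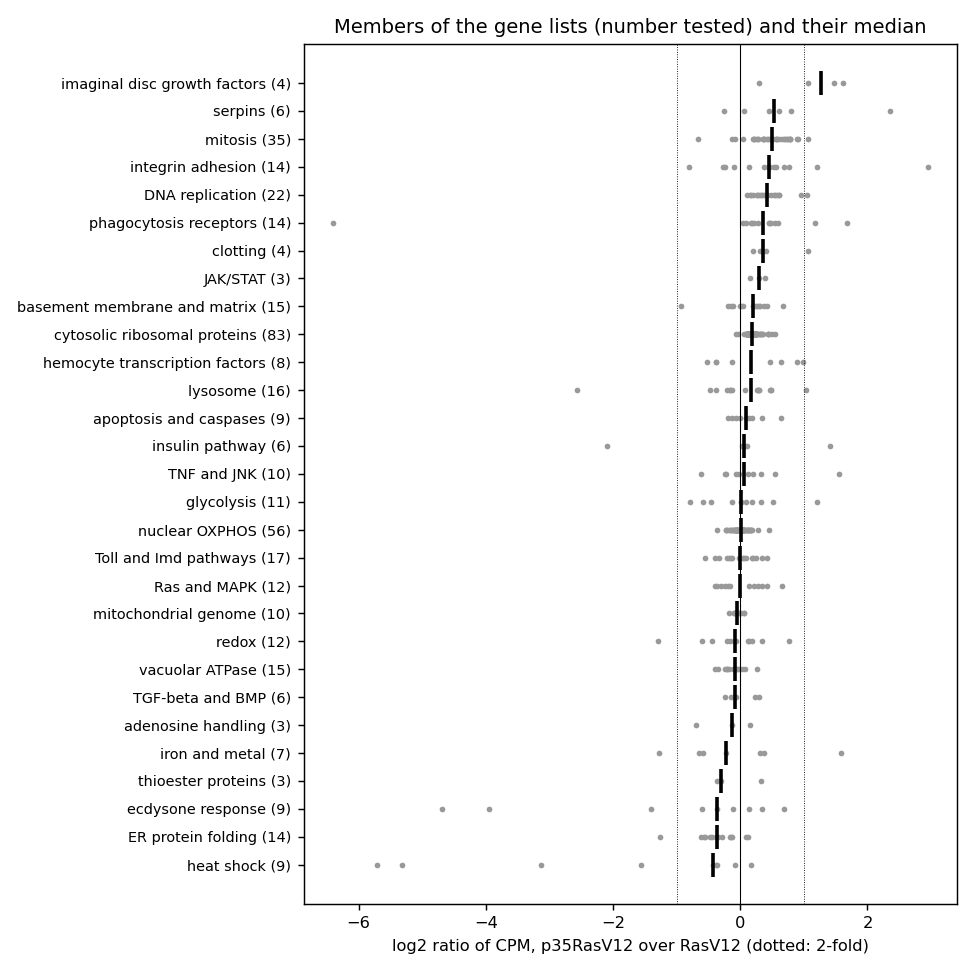
Log2 ratio of CPM, p35RasV12 over RasV12 (x axis), of the tested members (grey points) and their median (black bar) in each list of at least 3 tested members (y axis, number tested in parentheses). The imaginal disc growth factors have the highest median, 1.27, and the heat shock genes the lowest, -0.43, and most lists lie within 2-fold.

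Markers of other cells moved with some of these lists, and their part in the results was not tested except where the values without the cells are given above. All 5 lamellocyte markers had a higher level in p35RasV12, mys within 2-fold, with a summed level of 1226 CPM against 428 CPM. The summed level per cell had medians of 328 CPM and 355 CPM and reached 29096 CPM and 1783 CPM, and Treh and mys, the 2 tested members, were at -0.11 and -0.19 without the 5 cells. Crystal cell markers summed to 287 CPM and 449.8 CPM. PPO2, their tested member, had a log2 ratio of -0.79, and of -1.46 within clusters 0 and 2. The sign turned to 1.04 without the top cell of each genotype, 1.86 after thinning to 420000 reads and 1.31 by the median over cells. Its medians per cell within clusters 0 and 2 were only 1.67 CPM in p35RasV12 and 0 in RasV12. Single cells held 46.9% of the PPO1 reads in p35RasV12 and 85.9% in RasV12, while lz, the defining transcription factor, had at most 0.893 CPM. Fat body genes gave 73.8 CPM and 50.8 CPM.

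The roX RNAs, which coat the X chromosome of males, split the cells into those with at least 100 CPM and those below. The first kind made up 27 of 124 p35RasV12 cells (21.8%) and 46 of 126 RasV12 cells (36.5%), and within clusters 0 and 2 it was 26 of 122 and 32 of 77 cells. ninaD, Sirup, CG33465 and Hsp83 had the same direction and stayed past 2-fold on both sides of this split. Their log2 ratios in the cells under 100 CPM were 11.82, 3.05, -2.50 and -1.60, and in the other cells 10.64, 1.76, -1.41 and -1.51. Idgf1 was at 1.84 and 0.92. Of 50 named genes past 2-fold over all cells, all 50 kept direction and stayed past 2-fold in the cells under 100 CPM. In the other cells 35 did, 13 were within 2-fold in the same direction and 2 reversed. The part of the roX split in the remaining ratios was not tested.

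The higher genes were distributed unevenly over the chromosomes. On arm 2L 25 of 645 genes tested were higher (3.88%), against 2.14% of all 3451 genes tested. The shares were 1.26% on X, 1.39% on 3L, 1.81% on 3R and 2.47% on 2R, and chromosome 4 had 0 of 39. Of the 12 highest genes 6 lay on 2L, which held 645 of the 3451 genes tested. They were ninaD, CG18088, bero, Itgbn, Sirup and Nepl3. Idgf1, Idgf2 and Idgf3 also lay on 2L, as neighbors between positions 16445278 and 16455194. The 6 genes extend along the arm from Nepl3 at 5055982 to Itgbn at 21058044. Lower genes made up 2.02% on 2L, the smallest share of the 5 large arms.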

How the data were processed

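The authors aligned the reads of circulating hemocytes, sequenced from one end, to Dm6 (annotation r6.37) with STAR 2.7.2 and counted them per gene with featureCounts 2.0.0. The deposited values are raw counts, without normalization, strand or molecular identifiers. Reads on overlapping genes or at several places were not counted, so paralogs and overlapping genes are uncertain. The deposited annotation gives the genotype and cluster of each cell. The label of the circulating set names w1118 with the driver only, and the 3 genotypes stand in the annotation. Of 17612 gene identifiers 17549 were paired with a name.

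Counts were summed per genotype with Python 3.11.15, numpy 2.4.6, pandas 2.3.3 and scipy 1.17.1 over the kept cells, those with 200 or more genes and no more than 10% mitochondrial reads. This left 77267964 reads in p35RasV12, 73241893 in RasV12 and 79688546 in w1118. A difference means at least 2-fold among genes of at least 50 CPM, with a read in 25% of cells, in the higher genotype. With 1 pool per genotype no test was made. No doublet caller was run, since single cells had been sorted into wells. The summing and calling were tested on simulated data.

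Named genes were the 12 highest and 12 lowest ratios that stayed past 2-fold in the mean over cells and without the top cell of each genotype, the 5 genes at each end by share of cell pairs, up to 4 members per list, Ras85D and the markers. The members and lists were chosen with earlier results of these data known. Alternatives changed the cells, level, fold, scaling (TMM factors of edgeR 4.0.16 in R 4.3.3) and depth. Those on clusters 0 and 2 together and on roX were chosen after seeing the data. Figures were drawn with matplotlib 3.10.9. The p35 transgene was not analysed here.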

Additional observations from a re-analysis of the deposited data

How the results depend on the processing

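No paired analysis was possible because each genotype was 1 pool and its cells carry no shared numbers. Leaving out a replicate could not be run for the same reason. The counts of 74 higher and 86 lower genes became 420 and 362 with at most 5% mitochondrial reads and 200 to 4000 genes, which leaves 17 and 12 cells, 243 and 173 by the median over cells of CPM plus 1, 149 and 139 at 10 CPM, 2167 and 1215 for all genes with more than 3 reads, 257 and 214 at 1.5-fold and 13 and 33 at 4-fold. They were 49 and 12 in clusters 0 and 2, 159 and 138 in cells under 100 CPM of roX, and the lower count was 15 in cluster 0. TMM factors shifted all log2 ratios by -0.06. Of 50 named genes past 2-fold, all 50 kept their direction and stayed past 2-fold without a filter on cells, in the mean over cells, with totals without mitochondrial and rRNA genes and after thinning. Under TMM and without the top cell 48 did, without the cells over 1000 CPM of atilla 44, and in clusters 0 and 2 24, with 12 reversed. By the median over cells 25 of 50 did, with 1 reversed, and in cluster 0 26 of 50, with 12 reversed. In cluster 2 it was 20 of 48, with 7 reversed. With at most 5% mitochondrial reads and 200 to 4000 genes it was 35 of 49, with 7 reversed. The 12 highest and 12 lowest genes were chosen to stay past 2-fold in the mean over cells and without the top cell. For these genes the outcomes under those settings were fixed in advance. In the shallowest p35RasV12 cell, with 2129 reads, 1 read equals 469.7 CPM, and genes without a read there were not detectable at that depth.

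These log2 ratios changed sign, and the cause was not tested. In cluster 0, cluster 2, and both together, Ilp6 was at 0.24, 1.03 and 0.34 and Hr4 at 0.56, 0.27 and 0.51. In cluster 0 and in both together, Eip78C was at 0.63 and 0.52, Gal at 0.12 and 0.039, CG6287 at 0.53 and 0.29, NimC2 at 0.42 and 0.37, Dtg at 1.51 and 0.76, CG4408 at 0.028 and 0.0052, Mvl at 0.37 and 0.26, Cat at 0.12 and 0.093, MsrA at 0.64 and 0.15 and Hsp26 at 0.15 and 0.020. In cluster 2 alone, Mcm5 was at -0.22, Treh at -0.73, Jabba at 1.59, CG42867 at 1.56 and Ak1 at -0.86. With at most 5% mitochondrial reads and 200 to 4000 genes, Ilp6 was at 0.89, Gal at 0.30, Itgbn at -1.58, Spn88Eb at -0.80, CG15347 at -1.62, Fit1 at -0.65 and MsrA at 1.07. Without the cells over 1000 CPM of atilla, Treh was at -0.11 and Fit1 at -0.021. By the median over cells Fit1 was at -0.23, and in cells of at least 100 CPM of roX sub was at -0.77 and MsrA at 0.70.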
